A study of Homo sapiens with 42 samples.

Results

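The neighbourhood of SLC4A1 and ITGA2B on chromosome 17 was examined through its chromatin loops in the human leukemia line K562, which is an established line. A loop was taken as part of the neighbourhood when either of its anchors started between positions 44000000 and 44800000 of chromosome 17 (GRCh38). This window of 800 kb held 10 loops of the 33914 in the table, and 5 of the 10 had both anchors in it. The cells were of wild-type genotype and were treated with 25 nM PMA, a phorbol ester that drives K562 toward a state resembling megakaryocytes, for 0 h, 6 h or 72 h. All groups share the cell line and the medium, and a single leukemia line has the limits of 1 genome as a model of blood cell precursors. The series held 42 samples, 14 per time, which give 4 biological replicates at each of the 3 times. The labels do not say that the replicates came from separate cultures, so p-values measure the spread between these libraries, which may be technical.

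SLC4A1 encodes band 3, the anion exchanger that anchors the membrane skeleton of red cells. ITGA2B encodes integrin alpha IIb, which pairs with integrin beta 3 (ITGB3) to form the platelet fibrinogen receptor and appears early in the megakaryocyte lineage. Red cells and megakaryocytes arise from a common precursor, and K562 carries features of both lineages, so that the pair sets a gene of one fate beside a gene of the other. Chromatin loops bring distant anchors together, often at sites bound by CTCF and cohesin, and can place a gene and its regulatory elements in one domain or keep them apart. In situ Hi-C ligates DNA fragments that are neighbours in fixed nuclei, and the count of a loop is the number of ligated read pairs between its anchors of 10 kb. Such a count measures contact and not the activity of a gene, so the identity of the cells could not be checked against marker genes here.

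SLC4A1 lies at chr17:44248390-44268135 and ITGA2B at chr17:44372181-44389649, with 104 kb between them. Neither gene lay at a loop anchor. The nearest anchor was 28.4 kb from SLC4A1 and 10.4 kb from ITGA2B. The annotated starts at anchors of the loops closest around the pair belonged to UBTF, an RNA polymerase I transcription factor, SLC25A39, a mitochondrial carrier for glutathione, GRN, the progranulin gene, and ATXN7L3, a subunit of the SAGA deubiquitinase. The RefSeq promoters (GRCh38.p14; 250 bases before to 50 bases after a start) of ITGA2B and of 3 genes with starts at anchors of lost loops are shown, because ITGA2B lies apart from the anchors and the 3 are the nearest such starts to the pair. PLCD3 and ACBD4, whose starts lay at the far anchor of another lost loop (loop29698), are not shown. Of 10 genes looked up, 9 had an entry in the promoter table. SLC4A1 had none, so its promoter is not shown and was not searched. The sequences run 5′ to 3′ on the strand of the gene. Capitals mark GATAA, a form of the site bound by GATA factors, and GGAA, the core bound by ETS factors, on either strand (the reverse complements are TTATC and TTCC).
ITGA2B, minus strand, chr17:44389600-44389899: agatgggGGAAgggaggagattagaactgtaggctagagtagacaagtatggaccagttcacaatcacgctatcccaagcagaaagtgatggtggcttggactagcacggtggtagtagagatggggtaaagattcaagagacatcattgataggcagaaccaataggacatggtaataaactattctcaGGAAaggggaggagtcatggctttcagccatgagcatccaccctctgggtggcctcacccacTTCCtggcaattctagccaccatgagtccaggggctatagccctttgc
UBTF, minus strand, chr17:44219626-44219925: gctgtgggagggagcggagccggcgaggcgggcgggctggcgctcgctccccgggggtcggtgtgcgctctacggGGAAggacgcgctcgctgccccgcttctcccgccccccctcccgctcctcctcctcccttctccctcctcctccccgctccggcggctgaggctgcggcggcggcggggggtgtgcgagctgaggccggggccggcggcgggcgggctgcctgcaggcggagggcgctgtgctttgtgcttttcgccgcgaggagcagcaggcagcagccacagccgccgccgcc
SLC25A39, minus strand, chr17:44324774-44325073: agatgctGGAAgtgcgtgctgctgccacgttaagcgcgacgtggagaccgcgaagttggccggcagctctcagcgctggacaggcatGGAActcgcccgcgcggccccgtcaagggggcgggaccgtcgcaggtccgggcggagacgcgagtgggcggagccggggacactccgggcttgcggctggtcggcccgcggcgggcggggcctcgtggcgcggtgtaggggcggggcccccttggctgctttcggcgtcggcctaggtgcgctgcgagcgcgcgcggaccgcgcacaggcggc
GRN, plus strand, chr17:44345052-44345351: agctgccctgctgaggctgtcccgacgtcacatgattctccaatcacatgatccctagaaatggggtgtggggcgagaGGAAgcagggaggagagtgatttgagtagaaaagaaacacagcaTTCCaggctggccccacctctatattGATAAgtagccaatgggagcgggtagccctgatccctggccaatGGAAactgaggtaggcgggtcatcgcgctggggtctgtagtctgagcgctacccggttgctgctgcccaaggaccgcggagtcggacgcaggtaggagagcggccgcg

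Of these 4 windows, the GRN promoter held 1 GATAA match, 102 bases before the start, and the others held 0. GATA sites with another ending, such as GATAG in the ITGA2B window, were not searched for, so these counts do not cover all GATA sites. Among 35116 RefSeq promoters of this length, 22.7% held GATAA. GGAA occurred 3 times in the ITGA2B window, 3 times in that of GRN, 2 times in that of SLC25A39 and 1 time in that of UBTF, and 95.5% of all promoters held it. The other motifs searched on both strands were CCCTC (part of the CTCF motif, in 71.2% of promoters), CACCC (the core of KLF sites, in 59.9%) and TGACTCA (the AP-1 site, in 4.95%). The ITGA2B window held 1 CCCTC and 3 CACCC, of which 1 CACCC overlapped the CCCTC, and no TGACTCA. UBTF has 2 starts in the table, and the one shown lay in a loop anchor. These matches describe the letters of the windows and are not evidence of binding.

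The 10 loops used 15 distinct anchors and spanned 90 to 410 kb. SLC4A1 was enclosed by 3 loops and ITGA2B by 1. The UBTF to SLC25A39 loop (loop29692; anchors chr17:44210001-44220000 and chr17:44320001-44330000) was the tightest around SLC4A1, with SLC4A1 and RUNDC3A alone between its anchors. The GRN loop (loop29689; chr17:43930001-43940000 and chr17:44340001-44350000) enclosed SLC4A1 and 14 other protein-coding genes, including HDAC5 and UBTF, and ended at the start of GRN, before ITGA2B. The ATXN7L3 loop (loop29691; chr17:44190001-44200000 and chr17:44520001-44530000) was the loop around both genes, with UBTF, RUNDC3A, SLC25A39, GRN, FAM171A2 and GPATCH8 also inside. The GPATCH8 loop (loop29693; chr17:44400001-44410000 and chr17:44520001-44530000) began inside the body of GPATCH8, on the upstream side of ITGA2B, and shared its far anchor with the ATXN7L3 loop.

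The remaining loops lay to the sides. The HROB loop (loop29688; chr17:43930001-43940000 and chr17:44160001-44170000) shared an anchor with the GRN loop and spanned HDAC5, a class II histone deacetylase. The FZD2 loops (loop29694 and loop29695) began at chr17:44530001-44540000 and ended at chr17:44630001-44640000 and at chr17:44660001-44670000, the latter in MEIOC, a meiotic regulator. Both enclosed FZD2, a Wnt receptor. The 3 ADAM11 loops began in ADAM11, which encodes a member of the ADAM protein family, at chr17:44770001-44780000. They ended in EFTUD2, a spliceosome GTPase (loop29696, chr17:44860001-44870000), between genes (loop29697, chr17:45010001-45020000) and at the starts of PLCD3 and ACBD4 (loop29698, chr17:45130001-45140000). All 3 enclosed GJC1, a connexin gene.

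**Figure D1:**
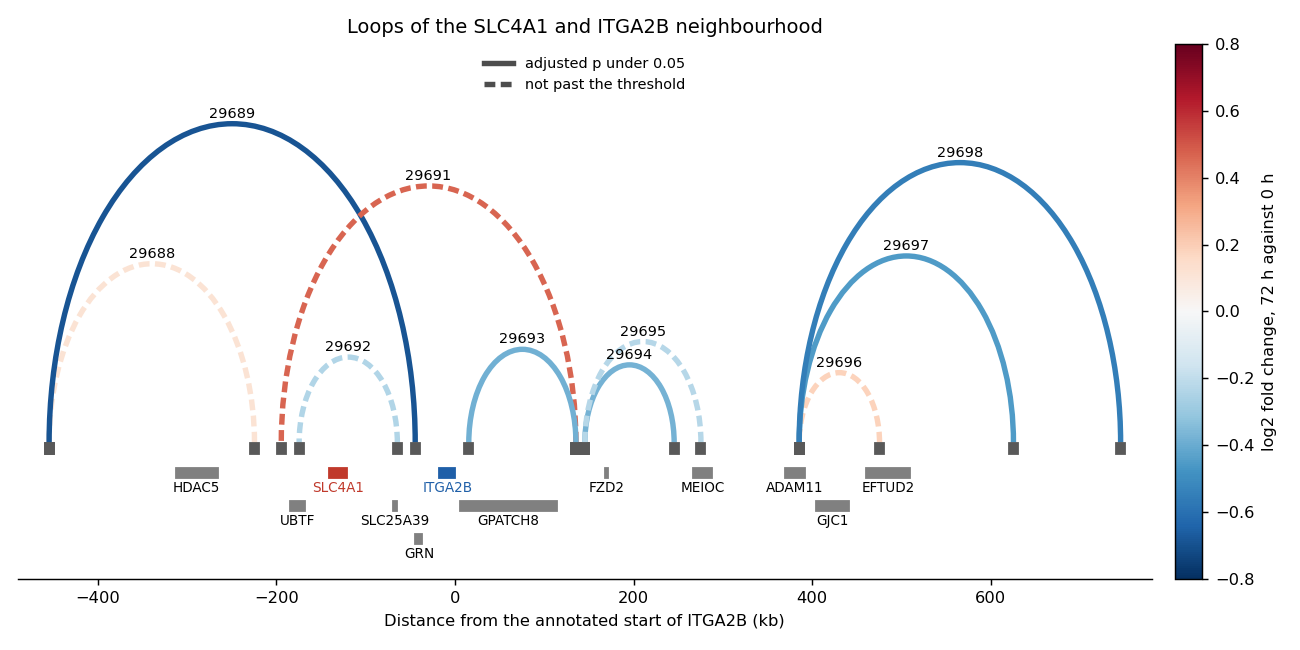
Map of the 10 loops, drawn to scale along the distance from the annotated start of ITGA2B in kb; arcs join the anchors (dark boxes), colour gives the log2 fold change at 72 h against 0 h and solid arcs passed the test (adjusted p under 0.05). Arc height follows loop length and has no other meaning. SLC4A1 sits under 3 arcs and ITGA2B under 1, no anchor touches either gene, and the 5 solid arcs are all on the negative side of the scale.

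The libraries held 849895 to 1472197 contacts over all loops at 0 h, 736929 to 1090199 at 6 h and 988726 to 1181057 at 72 h. All 10 loops passed the filter on low counts, as did 24132 loops of the genome, and 849 of these lay on chromosome 17 outside the window. Replicates 3 and 4 showed no difference that the test could tell from sampling noise at 72 h (chi-square per degree of freedom 1.00, p 0.489) and at 0 h (1.01, p 0.0591), so each such pair was counted as 1 sample in the means, giving n = 3 at 0 h and 72 h and n = 4 at 6 h. The other pairs, including replicates 3 and 4 at 6 h (1.02, p 0.0327), differed. An SD with n = 3 leaves out the difference between replicates 3 and 4, and so does not measure the spread of all 4 libraries. The fits kept 12 libraries. Normalized counts below are contacts per 1000000 contacts in tested loops after TMM scaling, and a call is an adjusted p under 0.05 in edgeR's quasi-likelihood test with Benjamini-Hochberg adjustment over all 24132 loops. The 6 h and 72 h comparisons share the 0 h libraries.

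The strongest loops for their length stood closest to the red cell gene and at the far side of the window. Measured against the tested loops within 1.2-fold of its own length, the UBTF to SLC25A39 loop lay at the 94.6th percentile of mean normalized count, and loop29696 of ADAM11 at the 88.5th. The loop around both genes was the weakest of the 10 for its length, at the 32.7th percentile. The other 7 lay between the 47.3rd and the 75.0th percentile. These ranks describe counts that contain the local background of each position, since no background was subtracted.

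At 6 h the question was whether loops around the pair had already moved. The UBTF to SLC25A39 loop around SLC4A1 lost contacts, and no other loop of the window passed the test. In the 4 libraries at 0 h its normalized count was 149.9, 135.8, 141.8 and 161.5, and at 6 h it was 131.4, 97.2, 120.3 and 109.8. All 4 libraries at 6 h lay below all 4 at 0 h, and libraries of these times lay wholly apart in 10.7% of all tested loops. The mean went from 146 ± 8.70 (SD, n = 3) to 115 ± 14.6 (SD, n = 4), which is -0.36 ± 0.11 (SE) as log2 fold change (adjusted p 0.0241, edgeR). Over the genome 6.41% of loops were called in this comparison, 4.07% as lost, 2.34% as gained, and on the rest of chromosome 17 5.3% were lost, so that 1 call among 10 loops is close to the background. The call ended without 0 h replicate 1 (adjusted p 0.0715), without 0 h replicate 4 (0.0836), without 6 h replicate 2 (0.141) and with a correction for loop length (0.0851).

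At 72 h the same loop held 115.9, 140.5, 129.0 and 114.3 normalized contacts, which overlap the 0 h values. The mean of 126 ± 12.9 (SD, n = 3) gave a log2 fold change of -0.24 ± 0.10 (SE) against 0 h (adjusted p 0.0599, edgeR), not past the threshold. It passed under 8 of 28 alternative settings, with adjusted p from 0.0195 to 0.751 over all 28. The difference between 72 h and 6 h was 0.12 ± 0.11 on the log2 scale (adjusted p 0.459, edgeR), so the level at 72 h was not told apart from that at 6 h. Within replicates 1 and 2, which have 3 technical replicates each, the 6 h change was -0.33, and within replicates 3 and 4, which have 2, each sequenced 2 times, it was -0.40, neither past the threshold alone.

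Below the level of the biological replicate, the 10 technical replicates of each time show how coarse a single column is. For the UBTF to SLC25A39 loop the 0 h columns lay between 115.9 and 194 normalized contacts, those of 6 h between 66.9 and 145, and those of 72 h between 93.5 and 169.8. For the GRN loop the 0 h columns lay between 8.63 and 31.7, and those of 72 h between 5.30 and 23.4. For the GPATCH8 loop the ranges were 68.8 to 124.8 and 58.0 to 86.6. Single technical replicates thus overlapped between times for these 3 loops, and levels are read from the summed libraries only.

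The GRN loop, which reaches across SLC4A1 and stops short of ITGA2B, fell late. Its normalized count was 24.6, 19.0, 22.6 and 26.2 at 0 h. At 6 h it was 26.5, 20.6, 15.6 and 35.0. At 72 h it was 15.9, 12.05, 9.36 and 16.1. The 72 h libraries all lay below the 0 h libraries, while those of 6 h spread on both sides of the 0 h range. Libraries of 72 h and 0 h lay wholly apart in 28.3% of all tested loops. The mean was 22.7 ± 3.18 (SD, n = 3) at 0 h, 24.4 ± 8.35 (SD, n = 4) at 6 h and 13.6 ± 2.07 (SD, n = 3) at 72 h. Against 0 h the log2 fold change was 0.08 ± 0.20 (SE) at 6 h (adjusted p 0.875) and -0.69 ± 0.22 at 72 h (adjusted p 0.00913, edgeR), to 0.619 of the 0 h level. The fall from 6 h to 72 h was itself called (-0.77 ± 0.22, adjusted p 0.00760), although 1 library of 6 h overlapped those of 72 h and the call ended without 6 h replicate 4 (0.0765). Over the genome 20.5% of loops were called between 6 h and 72 h, 9.81% as lost and 10.7% as gained, and on the rest of chromosome 17 17.4% were lost. This was the 1 call among the 10 loops. The lowest library, 72 h replicate 3, rests on 9 contacts, with an exact 95% Poisson interval of 4.12 to 17.1 that covers counting error only.

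The HROB loop shares the first anchor of the GRN loop and gave no call. It is described although it falls outside the rule for named loops, which also holds for loop29691, loop29695 and loop29696, because the window has few loops. Its mean normalized count was 33.2 ± 4.51 (SD, n = 3) at 0 h, 35.5 ± 4.61 (SD, n = 4) at 6 h and 33.9 ± 10.7 (SD, n = 3) at 72 h. The 72 h libraries spread from 23.0 to 47.8 and took in the whole 0 h range of 26.3 to 38.4. The log2 fold change at 72 h was 0.11 ± 0.17 (SE; adjusted p 0.638, edgeR). It was -0.30 within replicates 1 and 2 and 0.48 within replicates 3 and 4, neither called.

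The GPATCH8 loop next to ITGA2B lost contacts at 72 h. Its normalized count was 91.3, 80.7, 104.1 and 88.7 at 0 h, and 76.5, 68.2, 97.6 and 82.0 at 6 h. At 72 h it was 69.9, 74.3, 67.6 and 64.3. The 72 h libraries all lay below those of 0 h (as 28.3% of all tested loops lay apart) and close together, while the 6 h libraries overlapped both. The mean fell from 89.5 ± 8.01 (SD, n = 3) to 70.0 ± 4.18 (SD, n = 3), which is -0.38 ± 0.12 (SE) as log2 fold change (adjusted p 0.00877, edgeR). At 6 h the value was -0.18 ± 0.12 (adjusted p 0.421). The 72 h change was -0.27 within replicates 1 and 2 (adjusted p 0.244) and -0.53 within replicates 3 and 4 (0.0164).

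The loop around both genes was not among those lost. The ATXN7L3 loop, the only one of the 10 that encloses ITGA2B, held 13.8, 18.04, 26.3 and 6.82 normalized contacts at 0 h. It held 22.6, 17.8, 24.1 and 22.9 at 6 h, and 21.2, 26.1, 26.0 and 17.9 at 72 h. The 0 h libraries spread widely, and replicate 4 among them rests on 6 contacts (exact 95% Poisson interval 2.20 to 13.1) where replicate 3 has 21. The mean was 16.1 ± 2.17 (SD, n = 3) at 0 h, 21.8 ± 2.78 (SD, n = 4) at 6 h and 23.1 ± 2.63 (SD, n = 3) at 72 h. The 0 h SD leaves out the difference between replicates 3 and 4 (26.3 and 6.82). The log2 fold change was 0.40 ± 0.23 (SE) at 6 h (adjusted p 0.314) and 0.46 ± 0.22 at 72 h (adjusted p 0.0861, edgeR), neither past the threshold. Without 0 h replicate 4 the 72 h value was 0.26 (adjusted p 0.387), and without 0 h replicate 3 it was 0.68 (0.0205).

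**Figure D2:**
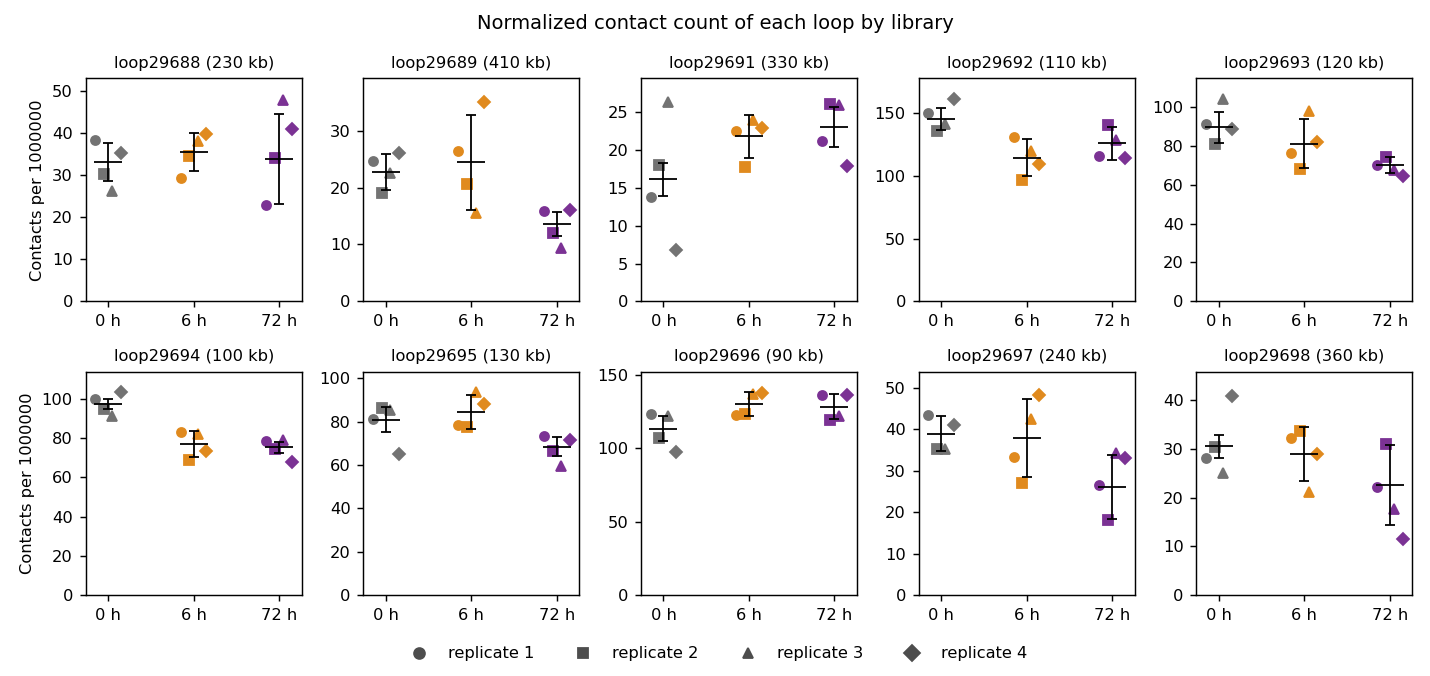
Normalized contact count (contacts per 1000000, after TMM scaling; each axis starts at 0) of the 10 loops in the 12 libraries, with a marker for each replicate, the mean as a bar and the SD as whiskers (replicates 3 and 4 counted as 1 sample at 0 h and 72 h). The 72 h libraries of loop29689, loop29693, loop29694 and loop29697 lie below all 0 h libraries, and in loop29691 the 0 h libraries range from 6.82 to 26.3. Libraries of 72 h and 0 h lie wholly apart in 28.3% of all tested loops.

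Because loops that share an anchor are counted in the same libraries, their ratio within a library does not depend on how the libraries are scaled. For the ATXN7L3 loop over the GPATCH8 loop, which share their far anchor, the log2 ratio (pseudocount 0.5 contacts) was -2.70, -2.13, -1.96 and -3.59 in the 0 h libraries. In the 72 h libraries it was -1.70, -1.49, -1.36 and -1.82, all above every 0 h library. The mean went from -2.54 ± 0.35 (SD, n = 3) to -1.59 ± 0.10 (SD, n = 3), a shift of 0.94 toward the loop around both genes. The lowest 0 h ratio, -3.59 in replicate 4, rests on 6 contacts of the ATXN7L3 loop and lowers the 0 h mean. The ratio was chosen after the data were seen. How often other loop pairs of the genome lie apart in this way was not counted. The two-sided exact permutation p was 0.1, the smallest that 3 samples against 3 allow, or 0.2 after Benjamini-Hochberg adjustment over the 8 pairs compared, so no pair could pass 0.05. At 6 h the mean ratio was -1.86 ± 0.11 (SD, n = 4), with an exact p of 0.0571, the smallest possible for 4 against 3, or 0.152 adjusted.

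The ATXN7L3 loop also stood higher relative to the UBTF to SLC25A39 loop inside it in the means, but the libraries overlapped. That mean log2 ratio was -3.24 ± 0.31 (SD, n = 3) at 0 h, -2.36 ± 0.13 (SD, n = 4) at 6 h and -2.43 ± 0.03 (SD, n = 3) at 72 h. The 0 h libraries ranged from -4.45 to -2.40 and those of 72 h from -2.65 to -2.29. The SDs at these times leave out the difference between replicates 3 and 4. The exact permutation p was 0.1 at 72 h and 0.0571 at 6 h. For the GRN loop over the loop inside it, the mean log2 ratio was -2.67 at 0 h, against -2.26 at 6 h (exact p 0.229) and -3.19 at 72 h (exact p 0.1), and the libraries overlapped at both times.

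Past GPATCH8, the shorter FZD2 loop was lower in every treated library and passed the test at 72 h. The count of loop29694 was 99.9, 94.9, 91.6 and 103.5 normalized contacts at 0 h. At 6 h it was 83.3, 69.2, 82.1 and 73.6, and at 72 h it was 78.7, 74.3, 79.0 and 67.8. The libraries of both treated times lay below all 0 h libraries. The mean was 97.5 ± 2.51 (SD, n = 3) at 0 h, 77.0 ± 6.81 (SD, n = 4) at 6 h and 75.5 ± 2.84 (SD, n = 3) at 72 h. The log2 fold change was -0.34 ± 0.12 (SE) at 6 h, which missed the threshold (adjusted p 0.0674), and -0.38 ± 0.12 at 72 h, which passed it (adjusted p 0.00789, edgeR). Libraries of one time lay wholly above those of the other in 10.7% of all tested loops at 6 h and in 28.3% at 72 h.

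The longer FZD2 loop, from the same anchor, gave no call in any comparison. The mean of loop29695 was 80.9 ± 5.67 (SD, n = 3) at 0 h, 84.4 ± 7.67 (SD, n = 4) at 6 h and 68.3 ± 4.42 (SD, n = 3) at 72 h. Its 72 h libraries, from 59.3 to 73.4, lay below its 6 h libraries, from 77.6 to 93.4 (log2 fold change -0.29 ± 0.13 SE, adjusted p 0.0884, edgeR). Libraries of these times lay wholly apart, in either direction, in 19.8% of all tested loops, and those of 72 h lay below in 9.43%. The within-library log2 ratio of the shorter over the longer loop was 0.27 ± 0.13 (SD, n = 3) at 0 h, -0.13 ± 0.15 (SD, n = 4) at 6 h and 0.14 ± 0.04 (SD, n = 3) at 72 h. All 6 h libraries lay below all 0 h libraries in this ratio (exact permutation p 0.0571, adjusted 0.152), and those of 72 h overlapped both. That p is the smallest possible for 4 samples against 3. The SDs at 0 h and 72 h leave out the difference between replicates 3 and 4 (0.10 and 0.67 at 0 h, 0.41 and -0.07 at 72 h). The ratio was chosen after the data were seen, and how often other loop pairs of the genome lie apart was not counted.

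The 3 loops from ADAM11 did not share their calls, and a relation to loop length was not tested. The shortest, loop29696, held 123.1, 107.3, 121.7 and 97.8 normalized contacts at 0 h. At 6 h it held 122.6, 123.4, 137.3 and 137.5, and at 72 h it held 136.2, 119.5, 121.7 and 136.6. The means of 113 ± 8.53 (SD, n = 3), 130.2 ± 8.35 (SD, n = 4) and 128 ± 8.41 (SD, n = 3) gave log2 fold changes of 0.19 ± 0.11 (SE) at 6 h and 0.19 ± 0.11 at 72 h, neither past the threshold (adjusted p 0.314 and 0.165, edgeR). The libraries overlapped at both times.

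The longer 2 were called as lost at 72 h. The count of loop29697 was 43.5, 35.1, 35.1 and 40.9 at 0 h, 33.3, 27.1, 42.5 and 48.3 at 6 h, and 26.5, 18.1, 34.3 and 33.0 at 72 h. Its log2 fold change at 72 h was -0.45 ± 0.17 (SE; adjusted p 0.0315, edgeR). All its 72 h libraries lay below those of 0 h, where 28.3% of all tested loops lay apart. The change was carried by replicates 1 and 2 (-0.79, adjusted p 0.0108) more than by replicates 3 and 4 (-0.17, 0.656), and the call ended when replicate 1 or 4 of 0 h was left out (0.126 and 0.0528), and when replicate 1 or 2 of 72 h was (0.0687 and 0.171). The count of loop29698, which ends at PLCD3 and ACBD4, was 28.2, 30.4, 25.1 and 40.9 at 0 h, 32.4, 33.6, 21.2 and 29.0 at 6 h, and 22.1, 31.1, 17.7 and 11.6 at 72 h. Its log2 fold change at 72 h was -0.55 ± 0.19 (SE; adjusted p 0.0190, edgeR), and 1 library of 72 h lay inside the 0 h range. Here replicates 3 and 4 carried the value (-1.10, adjusted p 0.00370) and replicates 1 and 2 did not (-0.15, 0.709), and the call ended without 0 h replicate 4 (0.101) or 72 h replicate 4 (0.162).

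Relative to the longer loop29697, the short ADAM11 loop stood higher at 72 h. The within-library log2 ratio of loop29696 over loop29697 was 1.49, 1.60, 1.77 and 1.24 at 0 h and 2.34, 2.69, 1.81 and 2.03 at 72 h. All 72 h libraries lay above all 0 h libraries, with means of 1.53 ± 0.06 (SD, n = 3) and 2.32 ± 0.39 (SD, n = 3) and an exact permutation p of 0.1, adjusted 0.2. That p is the smallest that 3 samples against 3 allow. The SDs leave out the difference between replicates 3 and 4 (1.77 and 1.24 at 0 h). The ratio was chosen after the data were seen, and how often other loop pairs of the genome lie apart was not counted. The same ratio over loop29698 was 1.89 ± 0.19 (SD, n = 3) at 0 h and 2.55 ± 0.60 (SD, n = 3) at 72 h, with overlapping libraries (exact p 0.2).

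Over the whole neighbourhood, 5 of the 10 loops were called as lost at 72 h and 0 as gained. Over the genome 33.6% of tested loops were called at 72 h, 16.9% as lost and 16.7% as gained. Chromosome 17 departed from this balance as a whole: of its 849 tested loops outside the window, 30.5% were lost and 7.54% gained. Over the 10 loops the 72 h log2 fold changes had a median of -0.31, against 0.01 over all tested loops and -0.20 over the other loops of chromosome 17, of which 69.7% were below 0. Loops of the same range of lengths, 13510 in number, had a median of -0.05, and 19.8% were lost. At 6 h the median was 0.01 over the 10 loops and -0.02 over the rest of chromosome 17.

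The share of contacts held by the neighbourhood moved with that of its chromosome. The 10 loops took 0.0632% ± 0.00206 (SD, n = 3) of all loop contacts at 0 h, 0.0613% ± 0.00385 (SD, n = 4) at 6 h and 0.0567% ± 0.000937 (SD, n = 3) at 72 h. Chromosome 17 as a whole took 4.62% ± 0.0943 (SD, n = 3), 4.52% ± 0.0712 (SD, n = 4) and 4.14% ± 0.0526 (SD, n = 3). As a share of the contacts of chromosome 17, the 10 loops took 1.37% ± 0.0171 (SD, n = 3), 1.35% ± 0.0690 (SD, n = 4) and 1.37% ± 0.0365 (SD, n = 3). The last share differed between the times by less than the spread between libraries.

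**Figure D3:**
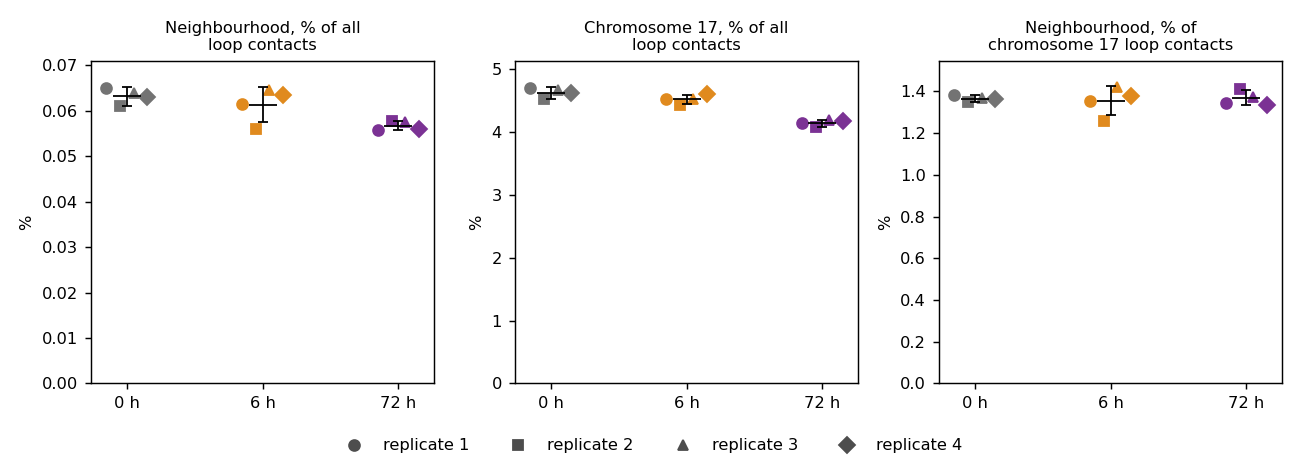
Contacts of the 10 loops as a percent of all loop contacts (left), contacts of all chromosome 17 loops as a percent of all loop contacts (middle) and contacts of the 10 loops as a percent of those of chromosome 17 (right), per library, with mean and SD (replicates 3 and 4 counted as 1 sample at 0 h and 72 h) and axes from 0. The first and second shares are lowest at 72 h (0.0567% and 4.14%), while the third is 1.37% at both 0 h and 72 h.

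Scaling the libraries to the loops of chromosome 17 in place of all loops moved the median of all tested loops by 0.18 on the log2 scale at 72 h, and ended all 5 calls. The log2 fold change was then -0.52 for the GRN loop (adjusted p 0.0583, edgeR), -0.19 for the GPATCH8 loop (0.203) and -0.18 for loop29694 (0.207). It was -0.27 for loop29697 (0.228) and -0.37 for loop29698 (0.133). On this scale 2 loops were called as gained, the ATXN7L3 loop around both genes (0.64 ± 0.22 SE, adjusted p 0.0150) and loop29696 of ADAM11 (0.38 ± 0.10, 0.00145). The share of gained loops among all loops called in the genome went from 49.6% to 80.6% with this scaling, and among those of the window from 0 of 5 to 2 of 2. At 6 h the shift was 0.04, and the UBTF to SLC25A39 loop was still called as lost (-0.32 ± 0.10, adjusted p 0.0421). Between 6 h and 72 h the shift was 0.14, the GRN loop was still lost (-0.64, 0.0294), and the UBTF to SLC25A39 loop was called as gained (0.27, 0.0445).

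**Figure D4:**
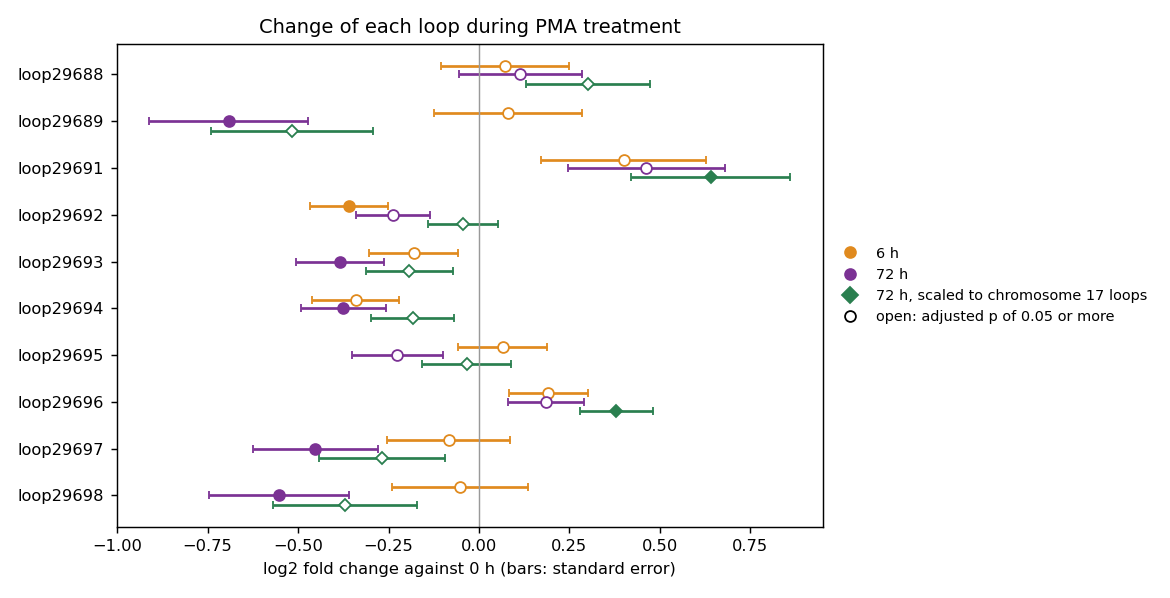
Log2 fold change of each loop against 0 h at 6 h (orange), at 72 h (purple) and, from libraries scaled to chromosome 17 loops, at 72 h again (green diamonds); bars are standard errors and filled symbols have an adjusted p under 0.05. At 72 h 5 filled purple symbols lie below 0, and after scaling to chromosome 17 the filled symbols are loop29691 (0.64) and loop29696 (0.38).

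The nearest loops outside the window had lower fitted levels at 72 h as well. The one toward the start of the chromosome, loop29690, spans 50 kb and lies inside the GRN and HROB loops, and its log2 fold change was -0.22 ± 0.09 (SE; adjusted p 0.0590, edgeR). The one on the other side, loop29699, begins within the longer ADAM11 loops and was called as lost (-0.37 ± 0.11, adjusted p 0.00583). Neither was called at 6 h (-0.11, adjusted p 0.564, and -0.25, 0.196).

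The authors' deposited table classes all 10 loops as static, beside 1000 loops classed as gained and 503 as lost. Its adjusted p-value, the same in the columns for both times, ranges from 0.110 to 0.922 over the 10. The authors' deposited table gives log2 values at 72 h of -0.46 for the GRN loop, -0.29 for the GPATCH8 loop, -0.28 for loop29694 and 0.27 for the ATXN7L3 loop. For the UBTF to SLC25A39 loop the authors' deposited table gives -0.23 at 6 h and -0.17 at 72 h. The signs are those of the fit given here for these 5 loops.

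Other genes of the same systems were followed through loops with an end of the gene in an anchor. The list of red cell membrane and skeleton genes had 24 names, of which 9 had tested loops, 18 in all. At 6 h 4 of the 18 were lost and 0 gained, where 4.07% of all tested loops were lost and 2.34% gained, and the median log2 value was -0.25. At 72 h 7 were lost and 1 gained, where 16.9% of all tested loops were lost and 16.7% gained, with a median of -0.20 against 0.01 over all tested loops. Of these 7, 4 lay in one cluster of near-identical genes, where loops are uncertain because reads may be split among the copies, and they are not independent of each other. The lost loops at 72 h included loop13807 at RHAG, which encodes the Rh-associated glycoprotein (-1.15 ± 0.16 SE, adjusted p 2.07e-09, edgeR). The 2 other tested loops at RHAG were not called (loop13799, 0.18, and loop13803, 0.08). The loop gained was loop18042 at CA2, carbonic anhydrase II (0.99 ± 0.21). The other tested loop at CA2 was not called (loop18041, 0.14).

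The list of platelet adhesion and integrin genes had 22 names, of which 9 had 15 tested loops. At 6 h 1 was gained and 1 lost, where 2.34% of all tested loops were gained and 4.07% lost. At 72 h 4 were gained and 2 lost, where 16.7% of all tested loops were gained and 16.9% lost, and the median log2 value was -0.06. The 6 calls among 15 loops at 72 h are near the 33.6% called over all tested loops. The gained loop at ITGA2, the collagen receptor subunit, rose at 6 h (loop11295, 0.75 ± 0.15 SE) and at 72 h (1.27 ± 0.14), and a loop at THBS1, thrombospondin 1, rose at 72 h (loop27668, 0.73 ± 0.14). The loop at ITGB3, the partner of ITGA2B and also on chromosome 17, fell at 72 h (loop29727, -0.91 ± 0.11, where the median of the other loops of chromosome 17 was -0.20). The other loops called at 72 h were gained at CD9 (loop22960, 0.48) and RAP1B (loop23913, 0.48) and lost at ITGB1 (loop20242, -0.56). Further tested loops at CD9 (loop22962, -0.06) and RAP1B (loop23910, -0.18, and loop23916, 0.30) were not called at 72 h. The loop lost at 6 h was at FGG (loop10203, -0.38), where the other tested loop was not called at 6 h (loop10192, 0.25). These are values of single loops and no test of either list was made. SLC4A1 and ITGA2B themselves add no loop to such a count, since neither has an end in an anchor.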

How the data were processed

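In situ Hi-C contacts were counted in K562 cells at 0 h, 6 h and 72 h of PMA. Raw contact counts of 30 technical replicates were deposited by the authors in 1 loop table, plus log2 fold changes, adjusted p-values, classes and, as other values, anchor positions, per the file headers (positions are given here counted from 1). The submitters' processing notes name Juicer 1.5.6, DESeq2, DESeq and the build hg38, without their roles; the loop caller is not given in the sources used here. All columns were used (0 unused).

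Technical replicates were summed into 12 libraries. Of 33914 loops, edgeR's filterByExpr (minimum count 10, minimum total 15) kept 24132 and left 9782 aside; a kept loop had a mean count of 29.25 in the median. The model was edgeR 4.0.16 under R 4.3.3 (TMM, quasi-likelihood, no covariate, prior count 2, adjusted p under 0.05), and checked on simulated data. Standard errors were taken as |log2 fold change| over the square root of F. Intervals cover counting error only. Loop ratios within libraries were tested with exact permutation tests, two-sided.

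Alternatives were DESeq2 1.42.0, other scalings, filters and thresholds, a length correction (loess, span 0.3), a replicate block, a term for replicates 1 and 2 against 3 and 4, either of these pairs alone, and each library left out; summing replicates 3 and 4 at 0 h or 6 h, and the loop ratios, were added after seeing the data.

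Named loops were those at SLC4A1 or ITGA2B (0 found), those called in any comparison and the one with the highest mean count; others were added after their values were seen. The members, gene lists and motifs were chosen with earlier results of these data known. Gene positions and promoters are from RefSeq (GRCh38.p14). No genome sequence was used, so anchors were not searched for motifs. Values of 1 gene of the red cell list are not reported here.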

Additional observations from a re-analysis of the deposited data

Results flagged for a closer look

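The GRN loop across SLC4A1 (loop29689) changed differently at 6 h and at 72 h: the test of the difference gave a log2 value of -0.77 for 72 h against 6 h (adjusted p 0.00760, edgeR), where the changes against 0 h were 0.08 and -0.69. What else moves with this difference was not tested. Outlying libraries were looked for in 11 groups of 4 libraries at 6 h, and 0 were found, where chance gives 1 in 20.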

How the results depend on the processing

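Counts of called loops were small and moved with the settings; directions of the called loops did not turn under any alternative run. At 6 h the count of 1 was 0 with the length correction, within replicates 1 and 2, within replicates 3 and 4, at adjusted p under 0.01, at a fold change of at least 1.5 and with DESeq2 without independent filtering. It ranged from 0 to 1 with single libraries left out. At 72 h the count of 5 was 2 with chromosome 17 scaling (both gained), 1 within replicates 1 and 2, 2 within replicates 3 and 4, 3 at adjusted p under 0.01 and 1 at a fold change of at least 1.5. It was 3 with DESeq2, 2 without its independent filtering and 2 of 5 for loops with both anchors in the window, and ranged from 3 to 6 with single libraries left out. The GRN, GPATCH8 and shorter FZD2 loops were called in all 12 of these fits. Within replicates 1 and 2 and within replicates 3 and 4, the GRN loop was not called (adjusted p 0.136 and 0.0604, edgeR). Nor was the shorter FZD2 loop (0.105 and 0.0611). With DESeq2 without independent filtering the GRN loop was not called either (adjusted p 0.0526). Between 6 h and 72 h the count of 1 was 2 with chromosome 17 scaling, 0 within replicates 1 and 2, 0 within replicates 3 and 4, 0 with DESeq2 without independent filtering and 0 for loops with both anchors in the window, and ranged from 0 to 2 with single libraries left out. With the replicate number as a replicate block the counts were 2, 6 and 1, and same-numbered libraries correlated between 0.01 and 0.12 in their deviations (over 0.1 in 1 of 12 pairs), with the own number best in 21 of 24 comparisons of a library with another time. The length correction gave 6 calls at 72 h, with loop29696 gained (adjusted p 0.0349). With the libraries scaled to total counts, 51.3% of all calls of the genome at 6 h were gained, against 36.5%. The log2 ratio of the share of contacts in the window was -0.04 at 6 h (-0.15 for both anchors in the window) and -0.15 at 72 h (0.00586 of chromosome 17 contacts, -0.21 for both anchors). For gene lists with ends within 10 kb of an anchor, 26 of 50 red cell loops were called at 72 h (22 lost) and 13 of 31 platelet loops, or 23 of 46 (19 lost) and 9 of 26 for any part of the gene, where 33.6% of all tested loops were called and 16.9% lost. The causes were not tested. Depth limits the long loops: 6 to 34 contacts per library stand behind the GRN and ATXN7L3 loops. The fits within replicates 3 and 4 may rest on 1 culture at 0 h and at 72 h, which the labels do not settle.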
